A study of Mus musculus with 15 samples.

Results

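The UPF and SMG genes encode the core factors of nonsense-mediated decay, and 9 of them (Upf1, Upf2, Upf3a, Upf3b, Smg1, Smg5, Smg6, Smg8 and Smg9) were followed in mouse CD8+ T cells. They were chosen as a family by gene symbol, with earlier results of these data known, and matched to the gene identifiers of GENCODE release M21. All 9 were found among the 55536 annotated genes of the tables, and all 9 passed the filter on low counts that left 24262 genes to test. Poly(A) RNA came from OT-I cells, T cells with a transgenic receptor for an ovalbumin peptide, that were transferred into C57BL/6J recipients. The recipients received the peptide antigen, either with control rat IgG in place of agonist antibodies (Ag, 5 libraries) or together with anti-OX40 and anti-41BB, which activate the costimulatory receptors OX40 and CD137 (Ag+Costim, 5 libraries). The labels place the sort from spleen and lymph nodes at 4 days, and the methods place it slightly earlier. All donors carried the same receptor transgene on a background lacking a Rag recombinase gene, and recipients were of both sexes and of a wide range of ages, with no age given for a library. The labels also hold 5 Naive libraries, whose counts were not analysed here. Nothing in the labels says which recipient gave which library, so p-values measure the spread between libraries.

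Nonsense-mediated decay removes mRNAs on which translation stops too early. UPF1 is an RNA helicase that is phosphorylated by the kinase SMG1, which SMG8 and SMG9 hold in check, and UPF2 with UPF3A or UPF3B links UPF1 to exon junction complexes left by splicing. Phosphorylated UPF1 recruits either SMG6, an endonuclease that cuts the RNA, or SMG5, which helps to bring in decapping and deadenylation enzymes. Several of these mRNAs are themselves targets of the pathway, so their levels are known to respond to its activity.

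For most genes the libraries of the Ag group differed from each other more than those of the Ag+Costim group. Libraries held between 59.6 and 639.1 M (mega) estimated counts, the fewest in Ag 3, which nonetheless had the most genes with a count (51778). CD8 T cell markers were present in every library, with a summed level of 3122 to 6140 CPM (counts scaled to a common library total with edgeR's TMM factors) in Ag and 4132 to 5039 CPM in Ag+Costim. The 5 B cell markers summed to between 17.5 and 293 CPM in Ag and between 14.4 and 31.9 CPM in Ag+Costim, and the 4 erythroid markers to between 8.23 and 669 CPM and between 2.09 and 24.7 CPM, both highest in Ag 3. The 3 CD4 T cell markers summed to 1.21 to 16.3 CPM and 2.43 to 5.77 CPM, and the 5 myeloid markers to 46.2 to 124 CPM and 79.5 to 163 CPM. The 6 cell cycle genes summed to 471 CPM in Ag 1 and 510 CPM in Ag 4, to 2240 CPM in Ag 3, to 3359 CPM in Ag 2 and 3558 CPM in Ag 5, and to between 3533 and 4476 CPM in Ag+Costim. None of these lists had a member at 0 in all libraries, and their part in the results was not tested.

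**Figure D1:**
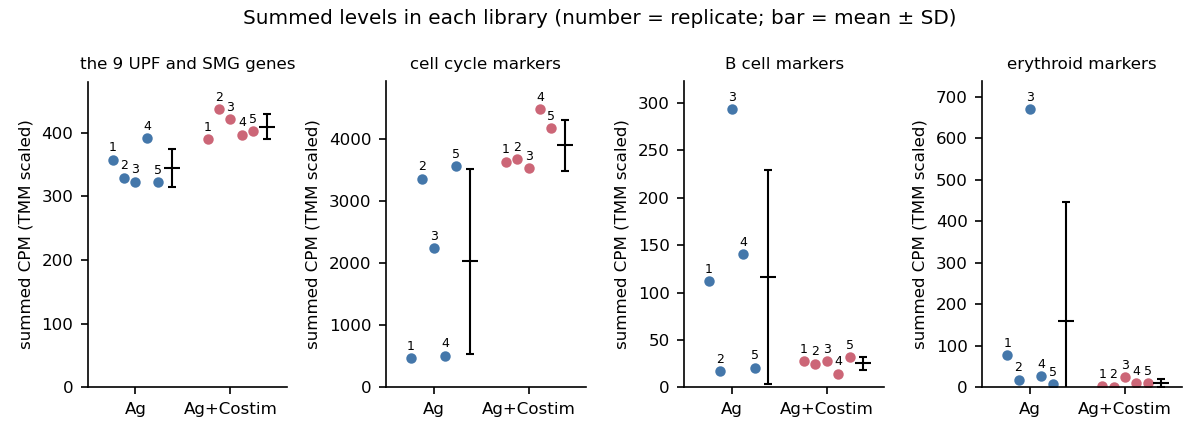
Summed CPM of the 9 UPF and SMG genes and of the cell cycle, B cell and erythroid marker lists in each library (y axes, linear and from 0; numbers mark replicates, bars the mean ± SD of 5 libraries, drawn down to 0 where the SD exceeds the mean). The 9 genes together lie between 323 and 392 CPM in Ag and between 390 and 437 CPM in Ag+Costim, whereas the cell cycle sum is low in Ag 1 and Ag 4 and the B cell and erythroid sums are high in Ag 3.

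In TMM-scaled CPM, the helicase gene Upf1 and the adaptor gene Smg5 stood higher in all 5 Ag+Costim libraries than in any Ag library. The groups overlapped for the other 7 genes. The means of those 7, Smg1 with the lower mean in Ag+Costim among them, differed by less than the SD of the Ag libraries. edgeR's quasi-likelihood test called none of the 9 genes at a Benjamini-Hochberg adjusted p (BH) under 0.05, and it called no gene at all (0.0% of 24262 genes). At an unadjusted p under 0.05 it picked out Upf1 and Smg5, 2 of the 9 genes, both higher, beside 7.89% of all genes higher and 10.7% lower, 4501 genes in all. DESeq2 called 2912 genes (12.0%), and limma voom with a weight for each library called 12670 (52.2%). Among the 9 genes, DESeq2 called the same pair, Upf1 and Smg5, both higher, where it called 2.98% of all genes higher and 9.02% lower. limma voom called 7 of the 9, with Upf1, Upf3b, Smg5 and Smg8 higher and Upf2, Smg1 and Smg6 lower, beside 25.8% of all genes higher and 26.4% lower. That fit gave Ag 2 and Ag 5 weights of 0.0986 and 0.0656, against 1.70 to 3.35 for the Ag+Costim libraries, so it rests mainly on the other Ag libraries. The shares of calls cover all 24262 genes, whose median log2 fold change by edgeR was -0.32. For the 8626 genes at 10 CPM or more, to which the 9 belong, it was 0.24. Shares of calls among these better expressed genes were not computed, so the background is an unlike one.

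Upf1 (ENSMUSG00000058301.8, chr8:70331525-70353278, mm10, minus strand) measured 44.4, 51.3, 66.5, 49.9 and 63.2 CPM in Ag 1 to 5. In Ag+Costim 1 to 5 it measured 69.0, 117.3, 108.9, 90.9 and 84.6 CPM. The groups did not overlap, although the highest Ag library (Ag 3) and the lowest Ag+Costim library (Ag+Costim 1) were only 2.45 CPM apart. The means were 55.1 ± 9.38 and 94.1 ± 19.3 CPM (SD, n = 5 each), a log2 fold change of 0.77 ± 0.18 (SE) with BH 0.154 by edgeR, 0.0108 by DESeq2 and 0.00353 by limma voom. Of all genes, 4.48% were higher without overlap, and 11.3% of the 8626 genes with a mean of at least 10 CPM, of which 0.22% were lower.

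Smg5 (ENSMUSG00000001415.10, chr3:88336260-88362338, plus strand) measured 46.4, 34.5, 50.6, 52.6 and 36.6 CPM in Ag. In Ag+Costim it measured 74.0, 75.1, 71.5, 77.3 and 76.2 CPM, a narrow range. The lowest Ag+Costim library exceeded the highest Ag library by 19.0 CPM, and Ag 2 and Ag 5 were the lowest. The means were 44.1 ± 8.15 and 74.8 ± 2.21 CPM (SD, n = 5 each), a log2 fold change of 0.76 ± 0.14 (SE) with BH 0.134 by edgeR, 0.018 by DESeq2 and 1.8e-04 by limma voom.

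The kinase gene Smg1 (ENSMUSG00000030655.15, chr7:118131308-118243670, minus strand) measured 85.6, 46.6, 50.9, 84.1 and 24.2 CPM in Ag and 41.7, 48.8, 41.3, 33.1 and 38.2 CPM in Ag+Costim. Ag 1 and Ag 4 were about as high as each other, Ag 5 was the lowest of all 10 libraries, and the groups overlapped. Its fitted log2 fold change of -0.52 ± 0.30 (SE) had BH 0.319 by edgeR, 0.136 by DESeq2 and 6.1e-04 by limma voom. It stayed negative under every scaling and with any library left out. The limma voom fit gave weights of 1.42 to Ag 1 and 2 to Ag 4, against 0.0656 to Ag 5. Ag 1 and Ag 4 were also the libraries with the lowest cell cycle sum, and the part of that difference in the Smg1 level was not tested. For the genes of its inhibitory partners the ratios to Smg1 overlapped between the groups as well (exact permutation test, two-sided p = 0.143 for Smg8 and 0.127 for Smg9). Smg8 (ENSMUSG00000020495.13, chr11:87077732-87086774, minus strand) lay between 19.0 and 40.5 CPM in Ag and between 28.9 and 37.4 CPM in Ag+Costim, and Smg9 (ENSMUSG00000002210.11, chr7:24399619-24422778, plus strand) between 27.6 and 49.3 CPM and between 40.2 and 46.2 CPM, with log2 fold changes of 0.18 and 0.16 (edgeR BH 0.597 and 0.498).

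Upf2 (ENSMUSG00000043241.14, chr2:5951469-6056703, plus strand), which bridges UPF1 and UPF3 proteins, measured 9.3 CPM in Ag 5 and 30.1 CPM in Ag 4 but only 18.0 to 20.7 CPM across Ag+Costim, and its log2 fold change was -0.03 (edgeR BH 0.951). The paralogues Upf3a (ENSMUSG00000038398.8, chr8:13785615-13799193, plus strand) and Upf3b (ENSMUSG00000036572.16, chrX:37091678-37110322, minus strand) changed by 0.15 and 0.20 on the log2 scale (edgeR BH 0.514 and 0.410). Their ratio per transcript length lay between 1.61 and 2.51 in Ag and between 1.62 and 2.07 in Ag+Costim (exact permutation test, two-sided p = 0.746), so no shift between the paralogues was detectable. The endonuclease gene Smg6 (ENSMUSG00000038290.15, chr11:74925823-75164448, plus strand) measured 29.5 to 49.8 CPM in Ag and 32.7 to 36.9 CPM in Ag+Costim, with a log2 fold change of -0.13 (edgeR BH 0.614). Srr overlaps Smg6 on the opposite strand and had mean levels of 9.88 CPM (Ag) and 12.3 CPM (Ag+Costim). Since the library kit does not mark strand, reads from the stretch the pair shares cannot be fully told apart. Genes overlapping Upf1, Smg1 and Smg8 stayed below 1 CPM on average, and the other 5 genes had no overlapping gene.

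**Figure D2:**
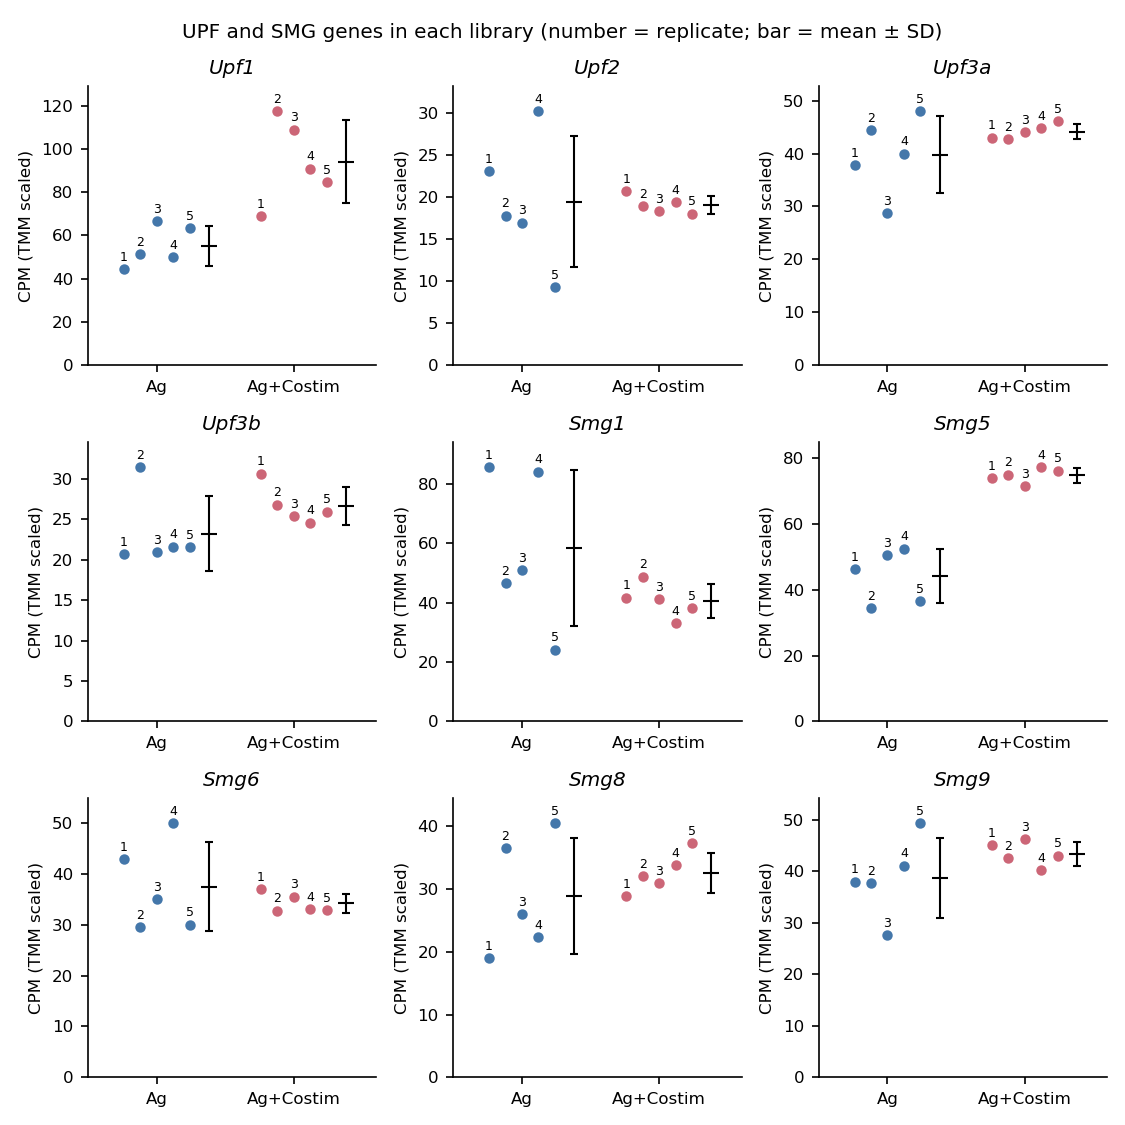
CPM of each of the 9 genes in each library (y axes, linear and from 0; numbers mark replicates, bars the mean ± SD of 5 libraries). Upf1 and Smg5 show no overlap between Ag and Ag+Costim, Smg1 is high in Ag 1 and Ag 4, and for every gene but Upf1 the Ag libraries are spread more widely.

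How far these differences held depended on the scaling of the libraries. With TMM factors the median log2 fold change of genes at 10 CPM or more was 0.24, with DESeq2 size factors 0.12, with upper quartile factors 0.02 and with library totals 0.00. Measured from that median, Upf1 lay 0.54, 0.52, 0.51 and 0.50 above it and Smg5 0.52, 0.49, 0.48 and 0.43 above it, and Smg1 lay at -0.76, -0.82, -0.83 and -0.91. Upf3a, Upf3b, Smg8 and Smg9, which had positive values with TMM, were negative with library totals and with upper quartile factors. Smg5 was without overlap with 3 of the 4 scalings and Upf1 with TMM only, and with library totals none of the 9 genes was. Among all genes, 4.48% were higher without overlap with TMM, 2.88% with DESeq2 size factors, 1.48% with upper quartile factors and 2.76% with library totals. In the same order, 1.13, 1.53, 2.28 and 1.85% were lower without overlap.

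**Figure D3:**
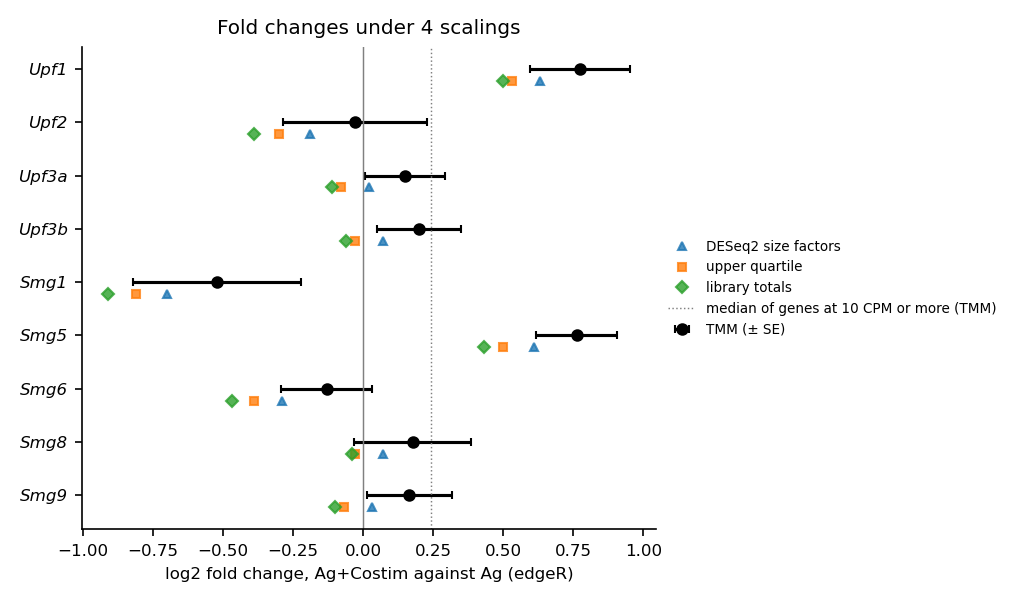
Log2 fold change of Ag+Costim against Ag for each gene (x axis) from edgeR with TMM scaling (circles, ± SE) and with 3 other scalings (triangles, squares, diamonds). Upf1 and Smg5 lie right of 0 and Smg1 left of 0 with all 4 scalings, and the values of Upf3a, Upf3b, Smg8 and Smg9 change sign.

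The spread itself was a difference between the groups. The SD of log2 CPM was 2.08 times (Upf3b) to 7.98 times (Upf2) as large in Ag as in Ag+Costim for 8 of the 9 genes. Upf1 alone went the other way, with an SD of 0.24 in Ag and 0.30 in Ag+Costim. Over all genes at 10 CPM or more the median SD was 0.463 in Ag and 0.121 in Ag+Costim, and 96.45% had the larger SD in Ag, so the 8 genes followed the rest.

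Per transcript length, which allows genes to be compared, Upf3a and Smg9 were the most abundant in Ag, at 33.0 ± 6.51 and 31.5 ± 7.92 TPM (counts per transcript length, scaled to a common total, SD, n = 5). Upf2 was the least abundant there, at 7.21 ± 3.90 TPM, and in Ag the ranges of all neighbours in the order overlapped. In Ag+Costim the order ran from Upf3a (33.0 ± 1.12 TPM), Upf1 (31.7 ± 6.51), Smg9 (30.6 ± 1.88) and Smg5 (28.9 ± 0.936) through Upf3b (17.4 ± 1.64) and Smg8 (15.5 ± 1.56) to Smg6 (9.28 ± 0.542), Upf2 (5.66 ± 0.311) and Smg1 (5.34 ± 1.11). The ranges did not overlap between Smg5 and Upf3b, Smg8 and Smg6, or Smg6 and Upf2, and the other neighbours did overlap. The kinase, the endonuclease and the bridging factor were thus at the lower end, and Upf1 stood 4th in Ag and 2nd in Ag+Costim. The genes at the lower end also have the longest main transcripts (Smg1-201 15557, Smg6-201 5848 and Upf2-201 5174 bases). Those of Upf3a (2057 bases) and Smg9 (2242 bases) are the shortest. The part of transcript length in this order was not tested. On this scale the groups overlapped for Upf1 and Smg5 as well. Upf1 measured 16.03 to 27.19 TPM in Ag and 23.4 to 39.84 TPM in Ag+Costim. Smg5 measured 11.05 to 29.73 TPM in Ag (21.3 ± 8.55, SD) and 27.51 to 30.04 TPM in Ag+Costim.

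Ratios between genes of the same library do not depend on the scaling. Among the 36 ratios of the 9 genes, 2 did not overlap between the groups, where 6.43% of all ratios between genes at 10 CPM or more did not, so the number was near the background. Both were with Smg5 and were looked at after its levels had been seen, so they are given as a description without a test. The ratio of Smg5 to Smg6 per transcript length was 1.63, 1.84, 1.95, 1.57 and 1.75 in Ag 1 to 5. It was 2.91, 3.33, 2.85, 3.32 and 3.22 in Ag+Costim 1 to 5. The groups were far apart, and the Ag libraries, so unlike in the level of each gene, were close to each other in this ratio per transcript length. On the log2 scale the Ag mean was 0.80 ± 0.13 and the Ag+Costim mean 1.64 ± 0.11 (SD, n = 5 each), a difference of 0.84 or 1.79-fold. The difference was 0.88 with gene counts and 1.03 with the longest coding transcripts alone. With these measures the Ag libraries were less close to each other. Their ratios were 1.05 to 1.44 with gene counts (SD 0.18 on the log2 scale) and 0.96 to 1.71 with the longest coding transcripts (SD 0.35).

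The other ratio was that of Smg1 to Smg5, which was 0.233 to 0.666 in Ag and 0.132 to 0.229 in Ag+Costim, with Ag 5 just above the highest Ag+Costim library (difference of -1.38 on the log2 scale).

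**Figure D4:**
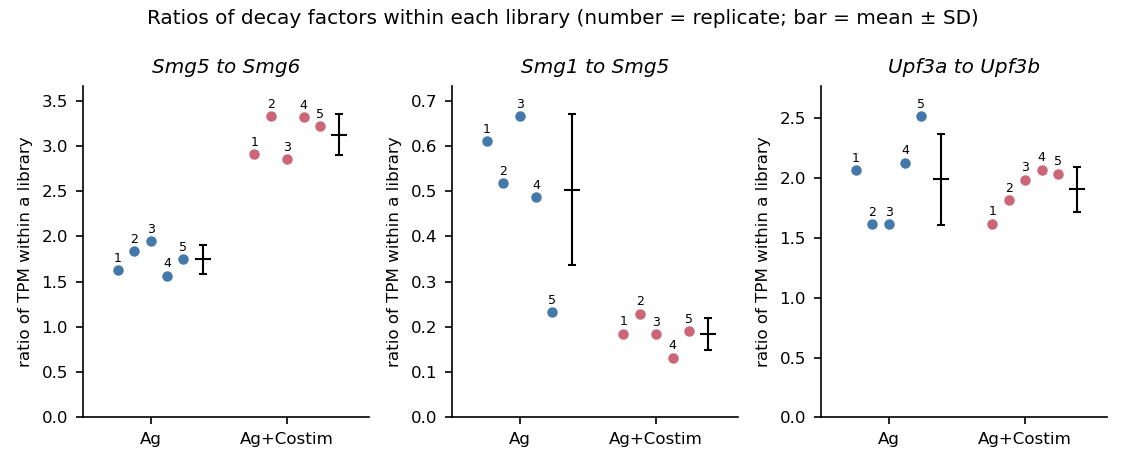
Ratios of TPM within each library for Smg5 to Smg6, Smg1 to Smg5 and Upf3a to Upf3b (y axes, linear and from 0; numbers mark replicates, bars the mean ± SD of 5 libraries). Smg5 to Smg6 lies between 1.57 and 1.95 in Ag and between 2.85 and 3.33 in Ag+Costim, Smg1 to Smg5 is lower in Ag+Costim with Ag 5 close to it, and Upf3a to Upf3b overlaps.

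The transcript tables allowed the forms of each mRNA to be compared. Upf1 has a pair of coding transcripts that differ in the 5′ splice site of exon 7, and the form that uses the downstream site holds 33 more bases, or 11 codons, in the region of the long regulatory loop of UPF1. The exon is shown in both forms because this choice is the one coding difference between them (mm10, chr8:70339982-70340099 and chr8:70340015-70340099, minus strand, 118 and 85 bases). Capitals mark the bases kept only in the long form, which begin with the GT of the upstream splice site.
Upf1-201, long exon: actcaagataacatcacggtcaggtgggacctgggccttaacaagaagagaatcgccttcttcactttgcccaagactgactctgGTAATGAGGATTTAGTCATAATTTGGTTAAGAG
Upf1-202, short exon: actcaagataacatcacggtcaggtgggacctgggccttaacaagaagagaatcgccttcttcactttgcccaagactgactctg

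The long form, Upf1-201, took 24, 20.1, 17.3, 12.8 and 20.7% of the Upf1 counts in Ag and 11.9, 19.7, 19.2, 12.5 and 13.9% in Ag+Costim. High and low libraries occurred in both groups, which overlapped. The means were 19.0 ± 4.19% and 15.4 ± 3.74% (SD, n = 5 each, exact permutation test, two-sided p = 0.206), so no change in the form of Upf1 was detectable. The transcripts also differ by 67 bases at the 5′ end, and the estimated share draws on both differences.

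Smg5 had a large share on a transcript with a retained intron. Smg5-203 ends inside intron 12 of the coding transcript Smg5-201 and holds its first 1148 bases. The start of that stretch is shown (mm10, chr3:88351542-88351641, plus strand), with the last bases of the exon in lower case and the retained intron in capitals.
Smg5-203: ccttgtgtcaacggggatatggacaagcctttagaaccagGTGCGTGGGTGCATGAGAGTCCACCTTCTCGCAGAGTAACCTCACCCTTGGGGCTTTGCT

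Smg5-203 took 25.8, 36.9, 15.3, 27.8 and 14.5% of the Smg5 counts in Ag and 19.2, 19.3, 12.4, 13.1 and 14.1% in Ag+Costim. Ag 1, Ag 2 and Ag 4 were above every Ag+Costim library, and Ag 3 and Ag 5 were within their range. The means were 24 ± 9.35% and 15.6 ± 3.36% (SD, n = 5 each, exact permutation test, two-sided p = 0.0952), and the coding transcript Smg5-201 took 74.2 ± 9.32% and 83.2 ± 3.52%. Without Ag 2 the difference in Smg5-203 was -5.22 in place of -8.43 percentage points. Smg9-205, which holds 640 bases of an intron of Smg9, ranged from 2.04 to 10.2% in Ag and from 2.31 to 4.33% in Ag+Costim (exact permutation p = 0.127). Smg1-206, also with a retained intron, took 30.8% in Ag 3, the library with the most B cell and erythroid marker counts, and at most 3.53% in the other 9 libraries, so the difference of -6.31 percentage points between the groups was -0.614 without Ag 3. Upf3b-203, a processed transcript without a coding sequence in the annotation, took 10.8, 3.01, 26.4, 7.5 and 4.84% in Ag and 2.27 to 3.88% in Ag+Costim, again highest in Ag 3, and the groups overlapped (exact permutation p = 0.0317, BH 0.464 over all transcript shares). Its difference of -7.28 percentage points was -3.30 without Ag 3.

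Together the 9 genes have 45 annotated transcripts, 18 coding, 17 with a retained intron, 3 typed as nonsense-mediated decay targets and 7 processed. Transcripts with a retained intron took 7.0 ± 3.41% (Ag) and 4.23 ± 0.895% (Ag+Costim) of their counts (SD, n = 5 each, exact permutation p = 0.103), beside 4.03 ± 1.48% and 2.89 ± 0.249% over all protein-coding genes. Transcripts typed as decay targets took 0.055 ± 0.0236% and 0.0695 ± 0.0431% in the 9 genes, beside 2.86 ± 1.19% and 2.50 ± 0.0639% over all protein-coding genes. Only 3 of the 45 transcripts have this type, and Smg1-204, 1 of them, had no counts in any library. The comparison thus depends on the annotation. Of 34 shares tested in these genes 1 did not overlap, where 2.49% of all 45752 shares did not, and no share reached a BH under 0.05 by the exact permutation test. In edgeR's test of transcript usage none of the 8 genes that could be tested was called, where 31 of 10441 genes (0.297%) were, and the lowest BH was 0.884, for Smg1.

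**Figure D5:**
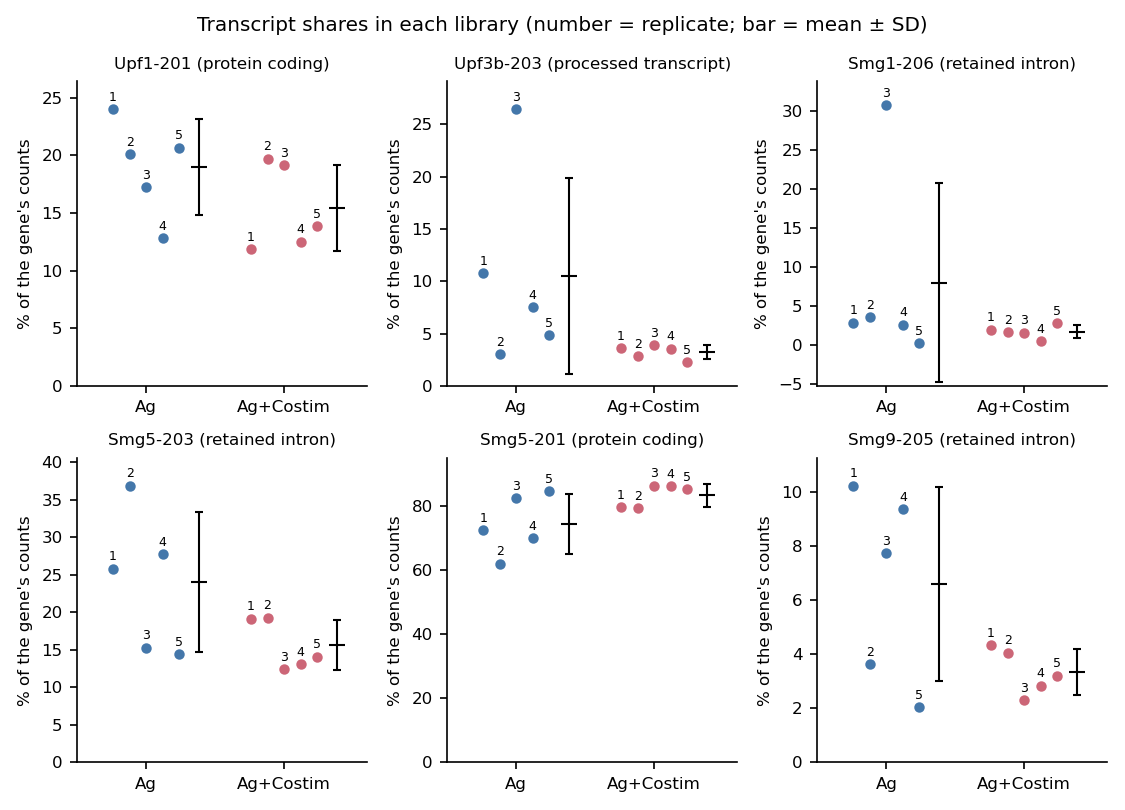
Share of the gene's counts on 6 transcripts in each library (y axes, percent; numbers mark replicates, bars the mean ± SD of 5 libraries). Smg5-203 falls between 14.5 and 36.9% in Ag and between 12.4 and 19.3% in Ag+Costim, and Smg1-206 and Upf3b-203 are each highest in Ag 3.

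The core exon events given for these genes showed nearly complete inclusion. The deposited table has 1 percent spliced in (PSI, as a fraction) per event and group. All 169 events were core exons, and all had a PSI above 0.9 in both groups. None reached both a Whippet probability above 0.9 and a difference in PSI above 0.05, the thresholds in use for this table, where 0.338% of all core exon events and 1.05% of all events did. PSI was higher in Ag+Costim for 144 of the 169 (85.2%), beside 79.5% of all core exons, with no replicate values to test this. All 22 Upf1 exons and all 20 Smg5 exons were among them, whereas 6 of 17 Smg6 exons were. The differences were small, at most 0.00324 in Upf1, 0.02855 in Smg5 and 0.03586 in Smg6. With 1 pooled value per group, their direction does not show a change in inclusion.

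The exons with the largest difference in Upf2 and in Smg5 are shown since they differ in what skipping would do to the reading frame. The Upf2 exon (mm10, chr2:6003545-6003653, plus strand) has 109 bases, not a whole number of codons, and its PSI was 0.935 in Ag and 0.979 in Ag+Costim. The Smg5 exon (chr3:88360331-88360405, plus strand) has 75 bases, whole codons, and its PSI was 0.970 in Ag and 0.998 in Ag+Costim. The latter passed the probability threshold but not that of the difference, as did an Upf3b exon of 99 bases (PSI 0.995 and 0.981). The largest differences in Smg6 and Smg1 were in exons of 62 and 139 bases, neither of them whole codons, with PSI 0.967 in Ag and 0.932 in Ag+Costim for Smg6 and 0.939 and 0.968 for Smg1.
Upf2 exon: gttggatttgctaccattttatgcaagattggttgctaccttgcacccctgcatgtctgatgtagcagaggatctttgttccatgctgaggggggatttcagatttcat
Smg5 exon: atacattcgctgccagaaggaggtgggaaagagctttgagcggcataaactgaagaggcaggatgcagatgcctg

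Other genes of the pathway mostly had positive fold changes, as did most well-expressed genes, and how many did depended on the scaling. With TMM factors, 6520 of the 8626 genes at 10 CPM or more were higher, with a median log2 fold change of 0.24, and the 9 UPF and SMG genes had a median of 0.16 with 6 higher and 3 lower. Of 14 further decay factors 13 were higher (median 0.36), of 9 genes of the exon junction complex all 9 (median 0.40) and of 18 decapping and deadenylation genes 16 (median 0.31). With library totals, 4317 of the 8626 genes were higher (median 0.00), and 2 of the 9 UPF and SMG genes (median -0.10), 10 of the 14 (0.16), 8 of the 9 (0.20) and 13 of the 18 (0.05). edgeR called none of these at BH under 0.05. At an unadjusted p under 0.05 it picked out 2, 2 and 7 of them as higher and none, none and 1 as lower, beside 7.89% and 10.7% of all genes. DESeq2 called none of the first and second lists, and 4 higher and 1 lower of the third, beside 2.98% and 9.02%. limma voom with library weights called 9, 8 and 9 higher and 1, of the third list, lower, beside 25.8% and 26.4%. Here too the shares cover all genes tested, not only those at 10 CPM or more, which were more often higher.

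In the decapping and deadenylation list, DESeq2 called Patl1, Edc4, Cnot3 and Cnot7 higher. The decapping activator gene Patl1 averaged 23.8 ± 2.88 CPM (Ag) and 37.7 ± 2.93 CPM (Ag+Costim) (SD, n = 5 each, edgeR BH 0.134, DESeq2 BH 0.0015), and the scaffold gene Edc4 88.3 ± 14.1 and 129.1 ± 5.4 CPM (edgeR BH 0.169, DESeq2 BH 0.0397). Of the CCR4-NOT deadenylase genes, Cnot3 measured 53.8 ± 7.53 and 80.1 ± 2.9 CPM and Cnot7 63.7 ± 16.6 and 96.2 ± 7.87 CPM (DESeq2 BH 0.0366 and 0.0222). The gene called lower was Pan3, a subunit of a poly(A) nuclease, named after its values were seen, at 20.3 ± 7.57 and 11.8 ± 1.20 CPM (edgeR BH 0.230, DESeq2 BH 0.0283). Casc3, a core gene of the exon junction complex, measured 50.01 ± 3.61 and 68.4 ± 7.81 CPM without overlap (log2 fold change 0.45, edgeR BH 0.193, DESeq2 BH 0.0588). It was 1 of 9 in its list to be higher without overlap, beside 1 of the 14 further decay factors. Of the 18 decapping and deadenylation genes 5 were, Patl1, Edc4, Cnot3 and Cnot7 among them. The background was 4.48% of all genes and 11.3% of genes at 10 CPM or more.

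Transcripts known to be sensitive to the pathway did not move together. Of 9 such genes, 4 were higher and 5 lower in Ag+Costim with every scaling. Their median log2 fold change was -0.10 with TMM factors, -0.24 with DESeq2 size factors, -0.34 with upper quartile factors and -0.39 with library totals. Genes at 10 CPM or more had higher medians each time, 0.24, 0.12, 0.02 and 0.00 in the same order. Whether the list differs from these genes was not tested. Some of its members lie below that level, as Snhg12, Gadd45a and Atf3 averaged only 3.14, 2.24 and 0.64 CPM in the Ag group. Ddit3, a stress response transcription factor gene whose mRNA is a known target, averaged 14.5 ± 5.0 CPM (Ag) and 7.33 ± 1.01 CPM (Ag+Costim) without overlap (SD, n = 5 each, log2 fold change -0.99, edgeR BH 0.154, DESeq2 BH 0.00227). Lower without overlap were 1.13% of all genes and 0.22% of genes at 10 CPM or more. Tbl2, another known target, measured 35.6 ± 17.8 and 59.9 ± 9.27 CPM with overlap (log2 fold change 0.75, edgeR BH 0.268).

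The genes whose pattern was most like that of each member were found by the root mean square difference of centred log2 CPM over the 10 libraries, among 8626 genes. For Upf1 the nearest was Nacc1 (0.119), for Smg5 2610507B11Rik (0.1), for Smg1 Kat2b (0.0867), for Smg6 Usp34 (0.0586) and for Upf2 Ktn1 (0.0807). For Upf3a it was Ascc1 (0.0474), for Upf3b Tgs1 (0.0872), for Smg8 Chid1 (0.0677) and for Smg9 Mms19 (0.0591). Within the 9 genes, Upf3a and Smg9 were nearest to each other (0.0968), and Upf1 and Smg5, though both without overlap in TMM-scaled CPM, were farther apart (0.312).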

How the data were processed

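Poly(A) RNA libraries of 5 Ag and 5 Ag+Costim samples were analysed, with groups and replicate numbers from the labels. According to the submitters' processing notes and the study's methods, the authors aligned reads to mm10 with HISAT2 2.1.0, sorted them with SAMtools 1.9 and assembled counts with StringTie 2.1.0, using R 4.0.5 and DESeq2 1.30.1 downstream. For each gene and transcript the deposited files hold estimated counts, whole numbers derived by the authors from coverage, not normalized. Their totals are not numbers of reads, so no counting interval is given, and depth enters only through the library totals. The authors also deposited a PSI fraction per splicing event and group from Whippet (version not given in the sources used here), with libraries combined. The deposited table also holds the PSI difference, a score, recomputed here from the PSI columns, and Whippet's probability, a score used only as the study's threshold. A lane sheet and a sample sheet were not used.

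Genes were tested with edgeR 4.0.16 in R 4.3.3 (quasi-likelihood test, filterByExpr, TMM factors) on the rounded counts of all 24262 genes that passed the filter, with BH adjustment over all of them. DESeq2 1.42.0 and limma 3.58.1 (voom with library weights) were alternatives. Entries without a GENCODE identifier (0.0458 to 0.308% of a library) were left out. Transcript usage was tested with edgeR's diffSpliceDGE (BH under 0.05 and a share change over 0.1), single shares and ratios with exact permutation tests (two-sided). TPM were computed from transcript counts and annotated lengths, and spread and likeness from log2(CPM + 0.5). Scripts were tested on simulated data. Transcripts are named at a share of at least 10% in a group, or 5% where typed as retained intron or decay target. In each pathway list at most 4 genes are named, those with the lowest p (Pan3 is named beyond these as the only gene of its list that DESeq2 called lower), and the splicing event named for a gene is that with the largest PSI difference. The members and lists were chosen with earlier results of these data known, and the ratios were looked at after the gene results were seen. 1 gene planned for the list of further decay factors is not reported here.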

Additional observations from a re-analysis of the deposited data

Results flagged for a closer look

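In 48 groups of 5 libraries (the CPM of the 9 genes, the named transcript shares and the ratio of Smg5 to Smg6), a library stood apart from the other 4 by Dixon's criterion in 4. Chance gives about 1 in 20 for independent groups of normal values, which these are not. Shares of transcripts of the same gene mirror each other, and those of Smg8-201 lie at or near 100%. The count of 4 can therefore not be set against that rate. Upf3b measured 31.4 CPM in Ag 2, against 20.7 to 21.6 CPM in the other Ag libraries. In Ag 3, Smg1-201 took 59.0% of the Smg1 counts, against 89.8 to 96.1% in the others, and Smg1-206, with a retained intron, took 30.8%, against 0.211 to 3.53%. Smg8-201 took 99.5% of the Smg8 counts in Ag+Costim 4 and 100% in the others.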

How the results depend on the processing

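edgeR's count of 0 genes (4501 at an unadjusted p under 0.05) and of 0 of the 9 UPF and SMG genes stayed at 0 with every scaling, without the filter, with a replicate block and with each library left out, while DESeq2 called 2912 genes and 2 of the 9, and limma voom with library weights 12670 and 7. The 31 transcript usage calls became 145 with limma's diffSplice, 19 at a minimum of 50 counts in 5 libraries, 30 with the replicate block, and 33 to 93 with a library left out, and none was in the 9 genes. The replicate numbers are shared between groups, but same-numbered libraries did not deviate together (correlations of -0.303 to 0.251, and 0 of 5 Ag libraries were nearest to their own number), so the block was not used further. With alternatives chosen after seeing the data, the 2 genes without overlap became 1 with DESeq2 size factors or upper quartile factors and 0 with library totals (3 without Ag 2), and the Smg5 to Smg6 difference of 0.84 was 0.80 to 0.88 with a library left out, 0.88 with gene counts and 1.03 with the longest coding transcripts. The share of all genes higher without overlap moved as well, from 4.48% with TMM to 2.88, 1.48 and 2.76% with these scalings in turn. That share was not computed with a library left out. The difference in the share of Upf2-201 went from 0.61 to 3.44 percentage points per transcript length, and without Ag 3 those of Smg1-206 and Smg1-201 went from -6.31 to -0.614 and from 8.63 to 1.77. Upf1 kept a positive log2 fold change (0.50 to 1.17 over 17 alternatives), as did Smg5 (0.43 to 1.13), and Smg1 a negative one (-0.93 to -0.23). Signs turned for Upf2 (-0.19 to 0.19 with a library left out, 0.27 without the filter, 0.07 with the block, 0.04 without Ag 1, 0.19 without Ag 4, 0.01 without Ag+Costim 3, 0.02 without Ag+Costim 5), Smg6 (-0.18 to 0.00 with a library left out, 0.19 without the filter, 0.00 without Ag 4), and with library totals and upper quartile factors for Upf3a (-0.11 and -0.08), Upf3b (-0.06 and -0.03), Smg8 (-0.04 and -0.03) and Smg9 (-0.10 and -0.07). The cause was not tested.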
